A study of Mus musculus with 10 samples.

Results

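The genes described here are 47 genes of the cell cycle and of DNA replication, given by name and read on mouse liver arrays after phenobarbital. A gene was found where its symbol equals the symbol of a probe set in the platform annotation, and 46 of the 47 were found, among 18193 genes on the array. They are read by 106 probe sets, the groups of short probes that each report 1 transcript region, of 45101 in all. The level of cyclin B1 (Ccnb1) is not analysed here. Of the probe sets, 1 listed under both Tyms and a Tyms pseudogene was not used for Tyms, which leaves 105. The genes were divided by role into 13 of S phase, 6 that control entry from G1 into S phase, and 28 of G2 and mitosis, of which 27 were measured.

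Total RNA came from whole liver of 10 male B6C3F1/Crl mice (C57BL/6 male x C3H/He female), aged 29 to 32 days on receipt and allowed 5 days to settle. The 5 treated animals drank phenobarbital at 0.05% (w/v) in water for 28 days, and the 5 controls were the second randomised group, with no agent named in the labels. Each animal gave 1 array, with a log2 level for every probe set. Phenobarbital is a barbiturate that promotes rodent liver tumours without damaging DNA, and the comparison asks how far cell cycle transcripts of the liver differ at the end of dosing.

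Adult hepatocytes rest outside the cell cycle and return to it when the liver is injured or exposed to a mitogen. In G1, cyclin D and cyclin E kinases release the E2F transcription factors, which switch on the genes of DNA replication. The MCM2 to MCM7 proteins are loaded on replication origins as a ring and unwind the DNA in S phase. Cyclin B kinase then drives mitosis, in which Aurora and Polo-like kinases, kinesin motors and spindle checkpoint proteins divide the chromosomes. Phenobarbital activates the nuclear receptor CAR in hepatocytes, and a burst of hepatocyte division early in treatment is known in mice.

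Array medians lay between 5.42 and 5.50. The arrays stood apart on the bacterial poly-A transcripts added before labelling: the mean of their 24 probe sets was 7.77 to 8.64 on control replicates 1, 2, 3 and 5, but 6.4 on control replicate 4 and 5.76 to 6.58 on the treated arrays. A fit with this set as a block therefore compares the 5 treated livers with control replicate 4 alone, and its estimate is called the within-set value below. It cannot tell the set from that animal, and it is less precise than the fit without the block. For Mcm2 its SE was 0.17 against 0.10, and for Ccnd2 0.12 against 0.07. Cyp2b10, the classical phenobarbital-induced P450, checked the exposure: it was at 5.62 to 7.07 in controls and 13.45 to 13.56 in treated animals (log2 change 7.05 ± 0.24 SE, limma adjusted p = 1.78e-09). Albumin, which marks hepatocytes, had means of 14.98 in controls and 14.96 in treated livers, and none of 4 hepatocyte markers was called.

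Phenobarbital-treated livers differed from controls in 9 of the 46 cell cycle genes, 4 higher and 5 lower. All treated arrays were in the low spike-in set, with control replicate 4 alone among the controls. For these calls, treatment and set cannot be told apart in the fit without a block. On the probe sets used none of the 46 reached a 2-fold difference, which 0.632% of all genes did. Higher were Mcm2, Mcm3 and Mcm5, which encode subunits of the replicative helicase, and Ccnb2, which encodes a mitotic cyclin. Lower were Mcm7, the ribonucleotide reductase subunit gene Rrm1, Ccnd2 for cyclin D2, Cenpa for the centromeric histone and Kif11 for a spindle motor. The call is a limma adjusted p under 0.05 over all 18193 genes. Among all genes 20.3% were called, 9.02% higher and 11.3% lower, so the 19.6% of cell cycle genes called is close to the background. The log2 changes ran from -0.44 to 0.44 with a median of 0.030, and the median over all genes was 0.008. In the fit without a block, the 95% confidence intervals of all 46 stayed between -0.64 and 0.78 on the log2 scale. That is between 0.640-fold and 1.71-fold, on the probe sets used. The intervals do not account for the spike-in set. With it as a block Ccnb2 was at 0.69 ± 0.23 and Mcm10 at -0.63 ± 0.24 (SE).

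**Figure D1:**
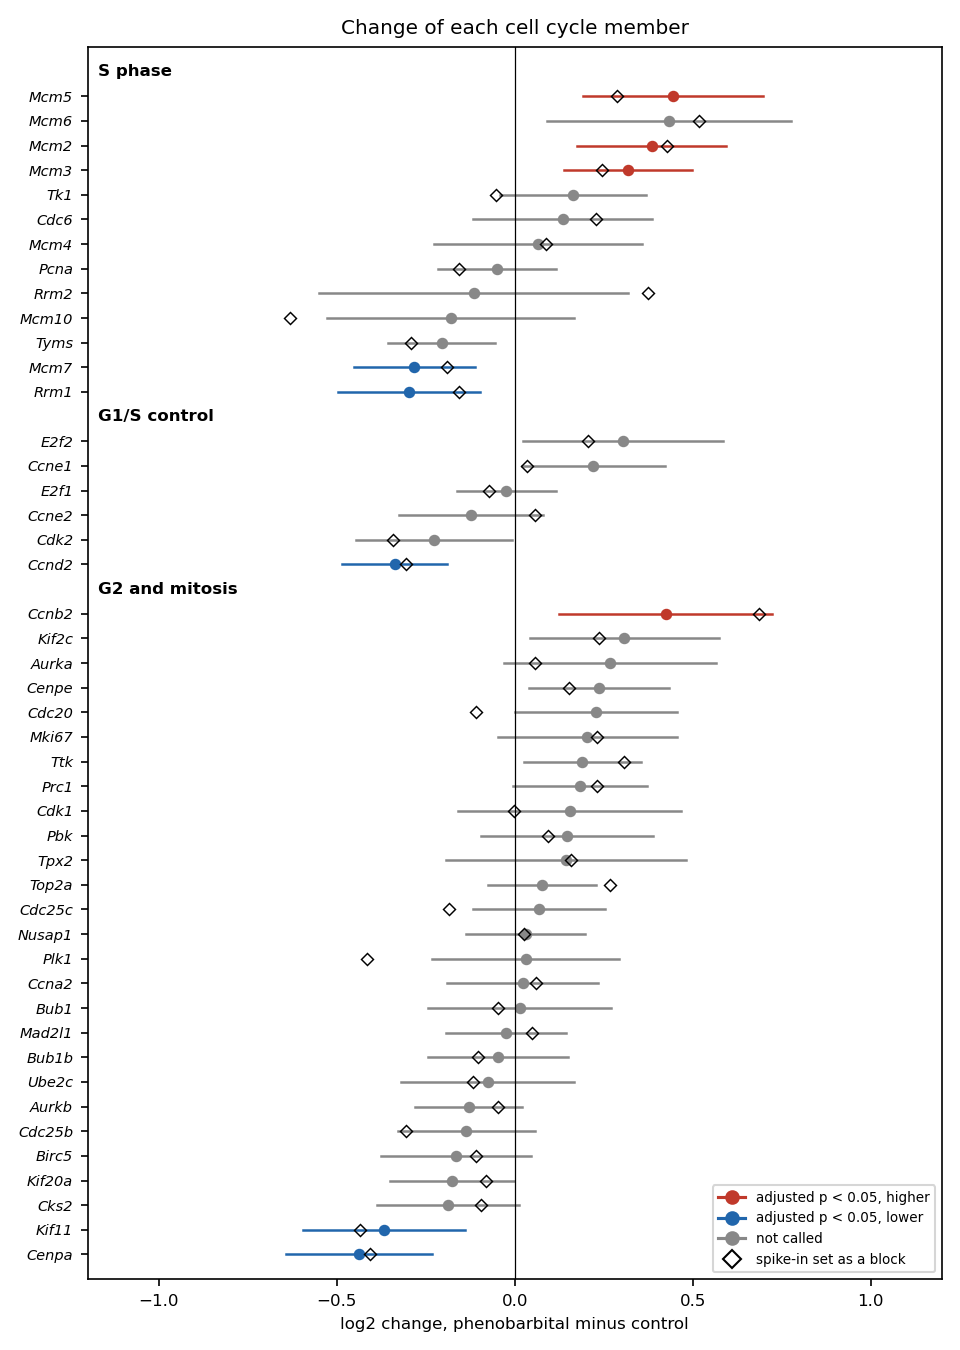
The log2 change of each of the 46 genes, phenobarbital minus control, is shown as a filled point with its 95% confidence interval (limma, 5 animals per group), sorted within S phase, G1/S control and G2 and mitosis. Colour marks the 4 genes called higher and the 5 called lower, and open diamonds mark the within-set value, for which no gene was called.

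S phase genes held 5 of the 9 calls, 3 higher and 2 lower of 13. G1/S control genes held 1, which was lower, of 6. G2 and mitosis genes held 3 of 27, 1 higher and 2 lower. Median log2 changes were 0.066, -0.073 and 0.030 in that order. The groups of animals did not overlap in 7 of the 46 genes, 2 higher and 5 lower. Among all genes 12.9% did not overlap, 5.73% higher and 7.21% lower. At an unadjusted p under 0.05 there were 19 of the 46, where 35% of all genes had such a p. With the spike-in set as a block limma called none of the 46, where 0.786% of all genes were called. An unadjusted p under 0.05 was given by 10 of the 46 with the block and by 13.3% of all genes. All 9 called genes kept their sign in the block fit. That fit reuses the treated arrays and control replicate 4, so the kept sign is not separate support. For Mcm2, Mcm3, Mcm7, Ccnd2, Cenpa and Kif11, whose groups did not overlap, the sign could not turn.

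Single animals moved these counts. The 4 higher calls became 2 without control replicate 2 or 3 and 7 without control replicate 5. The 5 lower calls became 2 without control replicate 1, and 3 without control replicate 2 or phenobarbital replicate 2 or 4. S phase had 3 calls without control replicate 1 and 2 without control replicate 2. G2 and mitosis had 1 call when control replicate 1 or 3, or treated replicate 2, was left out and 5 without control replicate 5, which also gave G1/S control 2. The S phase median turned to -0.022 without phenobarbital replicate 2 and to -0.027 without replicate 3. Over the 7 of the 13 S phase genes kept when brighter genes were tested alone, the median was -0.050. The calls of Mcm2, Mcm3, Ccnd2 and Cenpa were kept in every omission of 1 animal.

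The level on the array, read on the probe set used for each gene, differed between the phases, although probe sets vary in affinity and a level does not rank transcripts. Of the 27 genes of G2 and mitosis 20 had a mean under the median of the arrays, against 2 of the 13 S phase genes and 2 of the 6 G1/S genes. Of 24 genes that serve other organs, such as those of sperm, muscle, eye and pituitary, 18 lay under that median, with a median level of 4.59 that 11 of the 46 cell cycle genes did not reach. Cdc6, Tyms, Aurkb, Bub1, Ttk and Kif20a lay under the mean lower quartile of the arrays on the probe sets used. For Tyms the probe set shared with its pseudogene lay well above the array median, at 7.58 in controls. Pcna, Cks2, Mcm10 and Mcm7 were the 4 genes above all 24 of the reference genes. For Mcm10 this rests on its brightest probe set, at 10.67 in controls, while its others read 5.52 and 4.18.

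In S phase, the helicase genes moved in both directions. Mcm2 read 7.13, 7.17, 7.14, 7.08 and 7.10 in control replicates 1 to 5 and 7.38, 7.67, 7.83, 7.38 and 7.28 in phenobarbital replicates 1 to 5. Every treated liver lay above every control, and replicates 2 and 3 lay highest. The log2 change was 0.38 ± 0.10 (SE), a 1.30-fold rise (limma adjusted p = 0.0159), with a within-set value of 0.43. Mcm3 read 5.70, 5.65, 5.56, 5.68 and 5.44 in controls and 5.95, 5.97, 6.14, 5.84 and 5.72 in treated livers. The groups again did not overlap, with nearest values of 5.70 and 5.72, and the rise was 0.32 ± 0.08 (SE, limma adjusted p = 0.0196) with a within-set value of 0.24. Mcm5 read 5.85, 5.66, 5.68, 5.99 and 5.98 in controls and 6.29, 6.63, 6.39, 6.09 and 5.98 in treated animals. Here treated replicate 5 lay inside the control range and the other 4 lay above it. Mcm5 rose by 0.44 ± 0.12 (SE, limma adjusted p = 0.0195), a call lost without control replicate 2 or 3 (highest adjusted p 0.0512). The within-set value was 0.29, and on single-transcript probe sets Mcm5 was at 0.12 (limma adjusted p = 0.423).

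Mcm6 had an equally large estimate that did not pass, 0.43 ± 0.16 (SE, limma adjusted p = 0.0695). It read 6.45, 6.51, 6.16, 6.30 and 6.5 in controls and 6.75, 7.33, 7.12, 6.37 and 6.52 in treated animals, so that treated replicates 1, 2, 3 and 5 were above all controls. After quantile normalisation Mcm6 passed, with 0.52 (limma adjusted p = 0.0333). Mcm4 stood at means of 6.30 ± 0.05 in controls and 6.37 ± 0.35 in treated livers (SD, n = 5 each). Its treated replicates 2 and 3, at 6.72 and 6.74, were above every control, while replicates 4 and 5, at 5.98 and 6.07, were below every control. Mcm7 went the other way: 8.83, 8.84, 8.87, 8.68 and 8.63 in controls against 8.61, 8.61, 8.53, 8.35 and 8.34, again without overlap. Its log2 change was -0.28 ± 0.08 (SE, limma adjusted p = 0.0252), and the call was lost when control replicate 1, 2 or 3, or treated replicate 4 or 5, was left out and after quantile normalisation (-0.22), with a within-set value of -0.19.

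**Figure D2:**
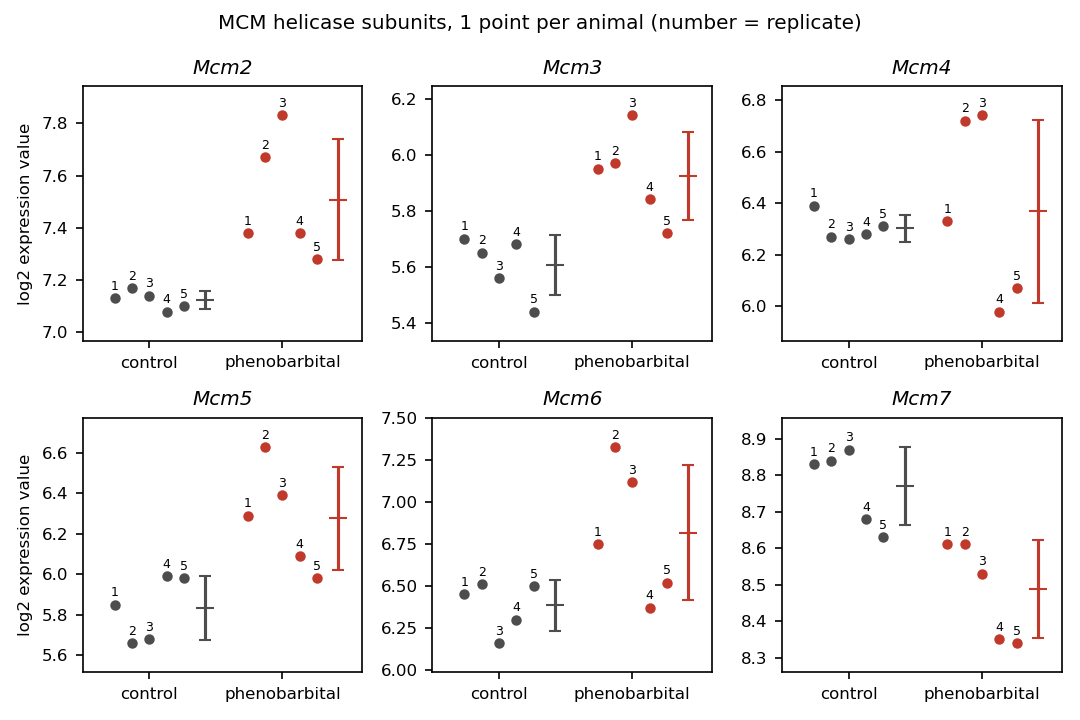
Deposited log2 expression values of the 6 MCM2 to MCM7 subunit genes are plotted for each animal (numbers give the replicate), with the group mean and SD (n = 5) at the right of each group. In Mcm2 and Mcm3 every treated liver is above and in Mcm7 every treated liver is below the controls, and treated replicates 2 and 3 are the 2 highest in Mcm2, Mcm3, Mcm4, Mcm5 and Mcm6.

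The stretches before the starts of the helicase genes with the highest estimates, and of Ccnb2 and Top2a from mitosis, are shown to let their replication-type and mitosis-type letters be compared. They are RefSeq sequences of GRCm38.p6, 5′ to 3′ on the strand of the gene, up to 180 bases before the start and outside any annotated gene. Capitals mark E2F-type letters, CHR-type letters, which are known from mitotic promoters, and CCAAT, each on either strand. The E2F-type letters searched were TTCCCGC, then TTCGCGC, then TTGCCGC, and lastly TTGGCGC, and the CHR-type letters were TTTGAA and also TTCGAA. E2F-type matches on the 2 strands overlap in Mcm5 and Mcm6.
Mcm2, chr6:88898781-88898960, minus strand: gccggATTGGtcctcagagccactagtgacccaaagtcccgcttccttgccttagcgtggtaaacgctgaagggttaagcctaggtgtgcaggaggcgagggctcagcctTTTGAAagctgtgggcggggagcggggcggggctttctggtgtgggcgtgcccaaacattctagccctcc
Mcm3, chr1:20820313-20820492, minus strand: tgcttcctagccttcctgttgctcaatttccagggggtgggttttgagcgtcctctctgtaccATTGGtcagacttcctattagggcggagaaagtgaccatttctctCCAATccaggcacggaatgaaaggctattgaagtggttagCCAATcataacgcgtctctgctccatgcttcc
Mcm5, chr8:75109329-75109467, plus strand: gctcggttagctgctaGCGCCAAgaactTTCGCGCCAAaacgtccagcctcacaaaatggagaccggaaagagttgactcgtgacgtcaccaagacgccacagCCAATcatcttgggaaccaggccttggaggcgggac
Mcm6, chr1:128359706-128359885, minus strand: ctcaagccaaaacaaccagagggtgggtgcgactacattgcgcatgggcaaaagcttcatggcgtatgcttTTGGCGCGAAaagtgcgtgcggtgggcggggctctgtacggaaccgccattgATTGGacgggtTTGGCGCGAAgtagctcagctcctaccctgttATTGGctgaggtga
Ccnb2, chr9:70421555-70421734, minus strand: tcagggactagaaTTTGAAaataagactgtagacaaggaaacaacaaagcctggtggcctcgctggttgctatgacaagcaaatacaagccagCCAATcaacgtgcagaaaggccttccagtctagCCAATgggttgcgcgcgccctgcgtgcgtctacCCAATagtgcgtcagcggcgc
Top2a, chr11:99024200-99024369, minus strand: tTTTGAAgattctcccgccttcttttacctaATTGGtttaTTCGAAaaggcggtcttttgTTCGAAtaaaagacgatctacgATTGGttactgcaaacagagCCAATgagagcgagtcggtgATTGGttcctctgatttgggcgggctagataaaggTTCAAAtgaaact

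E2F-type letters occur 3 times in the Mcm5 stretch and 4 times in that of Mcm6, and in neither Mcm2 nor Mcm3. Top2a holds 4 CHR-type matches, and Mcm2 and Ccnb2 hold 1 each. CCAAT occurs in all 6. Promoter windows were found for 38 of the 47 genes, Ccnb1 included, whose window holds E2F-type letters and CCAAT. Of these, E2F-type letters were in 5 of 12 S phase genes (41.7%) and 3 of 22 genes of G2 and mitosis (13.6%), against 6.42% of 27025 genes of all kinds. CHR-type letters were in 2 of 12 (16.7%) and 8 of 22 (36.4%), against 12.1%, and CCAAT in 29 of the 38 (76.3%), against 28.3%. A match is a description of letters and does not show binding. No stretch is printed for Mcm7, whose window overlaps its own gene and that of a neighbour.

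The remaining S phase genes are those of nucleotide supply and the genes of a sliding clamp, a loading factor and an initiation factor. Rrm1, the large subunit of ribonucleotide reductase, read 7.44, 7.59, 7.35, 7.32 and 7.60 in controls and 6.95, 7.17, 7.40, 7.04 and 7.25 in treated livers. Treated replicate 3 lay among the controls and the other 4 below them. The log2 change was -0.30 ± 0.09 (SE, limma adjusted p = 0.0375), and the call was lost when control replicate 1, 2 or 5, or treated replicate 1, 2 or 4, was left out. It was also lost after median centring (-0.26), after quantile normalisation (-0.20) and on the mean of the probe sets of Rrm1 (-0.038, limma adjusted p = 0.642), and the within-set value was -0.16. Its partner Rrm2 ranged widely in both groups, from 5.96 to 6.96 in controls and from 5.92 to 6.80 in treated animals (log2 change -0.12 ± 0.20 SE). Tyms, thymidylate synthase, had a change of -0.21 ± 0.07 (SE, limma adjusted p = 0.0527) on a dim probe set at 3.80 in controls and 3.60 in treated livers. The probe set that Tyms shares with its pseudogene read 7.58 ± 0.07 in controls and 7.5 ± 0.09 in treated livers (SD, n = 5 each), a change of -0.082 ± 0.07 (SE, limma adjusted p = 0.421). Tk1, thymidine kinase, had a change of 0.16 ± 0.10 (SE), with controls from 7.65 to 8.07 and treated livers from 7.76 to 8.16. Pcna, the sliding clamp of the DNA polymerases, stood at 10.16 ± 0.10 in controls and 10.11 ± 0.13 in treated livers (SD, n = 5 each), and its interval ran from -0.21 to 0.11. The loading factor gene Cdc6 was near the bottom of the scale, at 3.36 in controls and 3.5 in treated livers. Mcm10, an initiation factor outside the ring, had a change of -0.18 ± 0.16 (SE) on its brightest probe set.

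Among the 6 genes that control S phase entry, cyclin D2 was lower and the others did not pass. Ccnd2, whose product starts the kinase cascade in G1, read 8.14, 8.05, 8.06, 8.04 and 8.07 in controls and 7.77, 7.80, 7.77, 7.52 and 7.81 in treated livers. The groups were 0.23 apart at their nearest values, and treated replicate 4 lay lowest. Its log2 change of -0.34 ± 0.07 (SE, limma adjusted p = 0.00545) was called in all 10 omissions of 1 animal, and the within-set value was -0.31. Ccne1 and Ccne2, for the E cyclins that act at the G1/S border, had changes of 0.22 ± 0.09 and -0.12 ± 0.09 (SE). Their kinase gene Cdk2 had -0.23 ± 0.10 (SE), with treated replicate 1 at 7.18 and the other treated livers at 7.60 to 7.70. The transcription factor genes E2f1 and E2f2 had -0.024 ± 0.06 and 0.30 ± 0.13 (SE). Limma adjusted p for these 5 genes lay between 0.110 and 0.824.

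In G2 and mitosis, Ccnb2 was the 1 gene called higher. It encodes cyclin B2, and it read 4.24, 4.59, 4.43, 4.15 and 4.65 in controls and 4.84, 5.07, 5.19, 4.56 and 4.52 in treated livers. Treated replicates 1, 2 and 3 lay above all controls, and replicates 4 and 5 lay among them. The log2 change was 0.42 ± 0.14 (SE, limma adjusted p = 0.0466, within-set value 0.69), and the call was lost when any of control replicates 1 to 4 or treated replicates 1 to 3 was left out (highest adjusted p 0.110). Mki67, the gene of the Ki-67 proliferation antigen, read 4.99, 4.93, 4.74, 4.89 and 5.03 in controls and 5.23, 5.45, 5.26, 4.84 and 4.82 in treated livers. The same 3 treated livers were above all controls, and the change of 0.20 ± 0.12 (SE, limma adjusted p = 0.232) did not pass. Cdk1, the kinase partner of the B cyclins, read 6.87, 6.80 and 6.81 in treated replicates 1, 2 and 3, above the highest control at 6.62. In treated replicates 4 and 5 it read 6.19 and 6.22, beside the lowest control at 6.21, and its change was 0.15 ± 0.14 (SE).

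Cenpa and Kif11 were lower. Cenpa, the histone variant that marks the centromere, read 6.67, 6.86, 6.48, 6.63 and 6.66 in controls and 6.06, 6.37, 6.30, 6.39 and 5.99 in treated livers, without overlap. Its log2 change of -0.44 ± 0.09 (SE, limma adjusted p = 0.00808) was called in all 10 omissions of 1 animal, with a within-set value of -0.41. The call was lost on the mean of the probe sets of Cenpa (-0.21, limma adjusted p = 0.0638) and on single-transcript probe sets (-0.23, limma adjusted p = 0.0596). Kif11, the kinesin that pushes the spindle poles apart, read 5.11 to 5.23 in controls and 5.05, 4.67, 4.88, 4.41 and 4.96 in treated livers. The groups did not overlap, and treated replicate 4 lay lowest. The change was -0.37 ± 0.10 (SE, limma adjusted p = 0.0273), lost when control replicate 1 or 3, or treated replicate 2, was left out. The mean of the probe sets of Kif11 gave -0.13 (limma adjusted p = 0.101), and the within-set value was -0.44.

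The other 24 genes of G2 and mitosis did not pass on the probe set used. The mitotic kinase genes Aurka, Aurkb and Plk1 had log2 changes of 0.27, -0.13 and 0.030, with intervals that include 0. Of the spindle checkpoint genes, which hold the cell in metaphase until all chromosomes are attached, Mad2l1 had -0.024, Bub1 0.014, Bub1b -0.048 and Ttk 0.19. The kinesin and microtubule genes Kif2c, Cenpe, Prc1, Tpx2, Nusap1 and Kif20a had 0.31, 0.24, 0.18, 0.14, 0.030 and -0.18. Cdc20 and Ube2c, which serve the ubiquitin ligase that ends mitosis, had 0.23 and -0.076. Cyclin A2 (Ccna2), which acts from S phase to mitosis, had 0.022. The phosphatase genes Cdc25b and Cdc25c, which activate Cdk1, had -0.14 and 0.068, and the Cdk-binding protein gene Cks2 had -0.19. Birc5 (survivin) had -0.17, the kinase gene Pbk 0.15 and topoisomerase gene Top2a 0.076. Across these 24 genes the limma adjusted p ran from 0.0823 to 0.948.

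Several genes have more than 1 probe set, and the choice among them decided some calls. Of the 46 genes 32 had more than 1, and the value used was that of the probe set with the highest mean. Tested singly, 7 of the 105 probe sets were called higher and 8 lower (14.3%), where 18.7% of all 45037 probe sets were called. The pair of Mcm2 probe sets gave 0.38 and 0.39, both called. Of the 4 for Mcm7 all were negative and 2 were called. Of the 3 for Mcm5 all were positive, 1 called. Those of Mcm6 gave 0.43, 0.29 and 0.002, none called. For Mcm3 only the probe set used was called, and the other 4 ran from -0.23 to 0.11, with a mean over probe sets of 0.028 (limma adjusted p = 0.789). Cenpa and Kif11 each had 1 of 3 called, the one used, with the others at 0.054 and -0.23 for Cenpa and -0.076 and 0.050 for Kif11. Ccnd2 had 2 of 7 called, both lower, at -0.34 and -0.61, with the other 5 between -0.13 and 0.082 and a mean over probe sets of -0.14 (limma adjusted p = 0.0755). Rrm1 had 1 probe set called lower and 1, at a level of 3.17 in controls, called higher by 0.39.

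Top2a, whose product untangles the sister chromosomes, differed between its probe sets. One of its probe sets read 4.60, 4.72, 4.53, 4.90 and 4.95 in controls and 5.70, 5.59, 5.41, 5.01 and 5.12 in treated livers, every one above the controls. That is a log2 change of 0.63 ± 0.13 (SE, limma adjusted p = 0.00874 over probe sets), the largest of the 105 in size. The probe set used for the gene gave 0.076 and the other one -0.23, and neither was called. Mcm10 had a probe set called lower (-0.59, controls 5.20 to 5.82, treated 4.62 to 5.17) beside the brighter one at -0.18 and another at 0.25, neither called. Kif2c had all 4 probe sets positive, from 0.13 to 0.33, of which 1 was called.

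**Figure D3:**
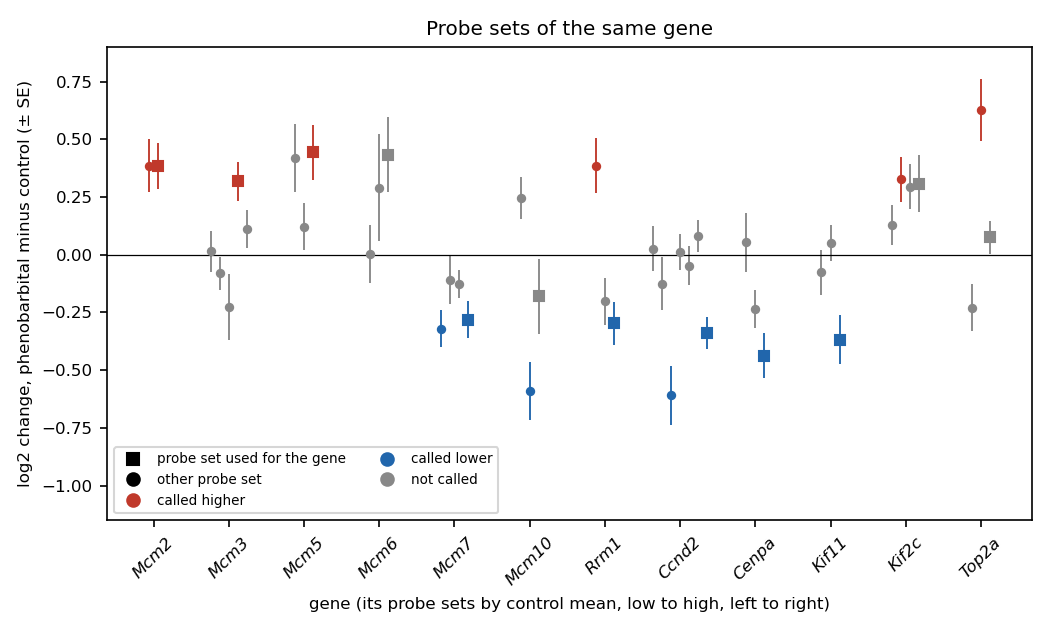
For 12 genes the log2 change of every probe set with its SE (limma, each probe set tested singly) is shown, with squares for the probe set used for the gene and colour for calls. The probe sets of Mcm2, Mcm5, Mcm6, Mcm7 and Kif2c lie on 1 side of 0, the lowest of Mcm6 being at 0.002. Those of Mcm3, Mcm10, Rrm1, Ccnd2, Cenpa, Kif11 and Top2a lie on both.

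The treated livers varied among themselves in these genes. The SD of the treated group was larger than that of controls in 29 of the 46 genes, while this was so in 36.5% of all genes. All 6 of the MCM2 to MCM7 genes were among the 29, a subset picked after their values were seen, with median SDs of 0.11 in controls and 0.24 in treated livers. Over the 13 S phase genes, the median difference from the control mean was 0.13, 0.29 and 0.23 in treated replicates 1, 2 and 3, and -0.074 and -0.094 in replicates 4 and 5. Over the 27 genes of G2 and mitosis it was 0.14, 0.13 and 0.072 against -0.028 and -0.038. Controls lay between -0.11 and 0.046 in the first set and between -0.022 and 0.094 in the second. Treated replicates 4 and 5 were each the lowest treated animal in 17 of the 46 genes, and the highest in 8 and 1. Replicate 2 was the lowest in 3 and the highest in 16. Whole liver was read, so more dividing cells and more of these transcripts per cell cannot be told apart.

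**Figure D4:**
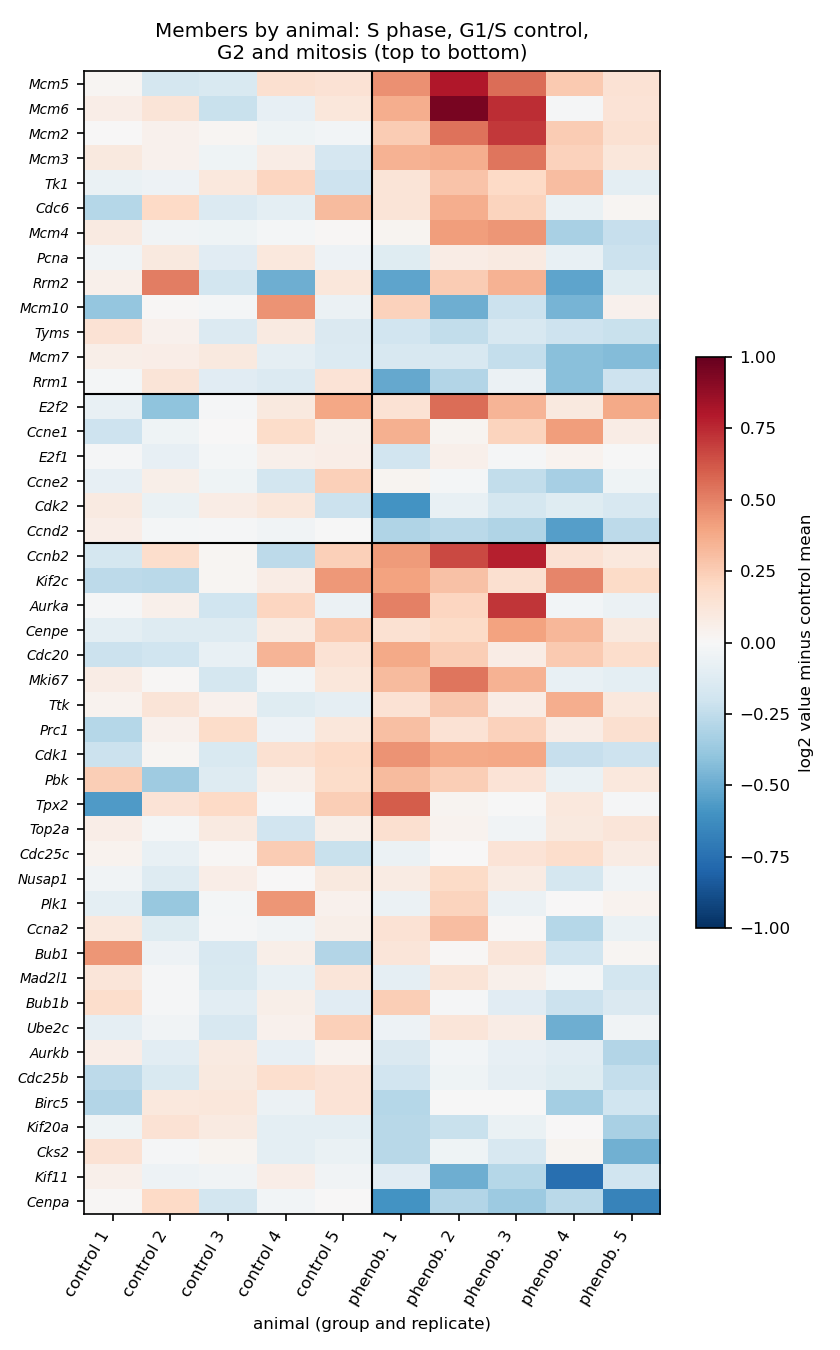
Each cell shows the log2 value of 1 animal minus the control mean of that gene, for the 46 genes (rows, sorted by change within phase) and the 10 animals (columns). Treated replicates 1, 2 and 3 lie above the control mean in Mcm5, Mcm6, Mcm2, Mcm3, Ccnb2, Aurka, Mki67 and Cdk1, and treated replicates 4 and 5 lie below it in Aurka, Mki67 and Cdk1.

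A further 133 measured genes of the same pathways, none of them among the 47, were read in the same fit. Of these 16 were higher and 15 lower, or 23.3% called, against 20.3% of all genes, and their median log2 change was 0.002. Replication factors held 3 higher and 4 lower of 41, mitotic genes 9 and 4 of 51, G1 regulators 3 and 4 of 19, CDK inhibitors 0 and 1 of 7, and checkpoint and repair genes 1 and 2 of 15. With the spike-in set as a block 2 of the 133 were called, Ect2 and E2f7, both higher, and with the low spike-in arrays fitted alone none was.

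Ect2, an exchange factor that sets the cleavage furrow, was the 1 gene among them past 2-fold. It read 3.82, 3.56, 3.88, 3.36 and 3.87 in controls and 5.26, 4.54, 4.75, 4.33 and 4.78 in treated livers. Every treated animal lay above every control, the control values are under the lower quartile of the arrays, and the log2 change was 1.03 ± 0.15 (SE, limma adjusted p = 0.00123). The within-set value of Ect2 was 1.37 (limma adjusted p = 0.0275 with the block and 0.101 on the low spike-in arrays alone). E2f7, an E2F family repressor that favours polyploidy in hepatocytes, read 4.84, 5.18, 4.89, 4.67 and 5.14 against 5.68, 5.39, 5.89, 5.52 and 5.61. Its log2 change was 0.67 ± 0.11 (SE, limma adjusted p = 0.00217), and the within-set value was 0.95 (limma adjusted p = 0.0291 with the block and 0.0630 on the low spike-in arrays alone). Each of these genes has a single probe set.

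Cdkn1b, which encodes the CDK inhibitor p27, was lower in every treated liver. It read 7.90, 8.12, 8.16, 8.0 and 7.96 in controls and 7.26, 7.41, 7.50, 7.65 and 7.54 in treated livers. Its log2 change was -0.56 ± 0.08 (SE, limma adjusted p = 0.00113), with both of its probe sets called lower and a within-set value of -0.53 (adjusted p = 0.137). Cdkn1a, for the inhibitor p21, had -0.45 ± 0.26 (SE, limma adjusted p = 0.241), with control replicate 2 at 9.48 and the other controls at 7.80 to 8.52. Ccnd1, for cyclin D1, had 0.28 ± 0.13 (SE, limma adjusted p = 0.152) and Foxm1, a transcription factor of mitotic genes, -0.090 ± 0.07 (adjusted p = 0.380). Single probe sets of both were called in the opposite direction, at -0.71 for Ccnd1 and 0.35 for Foxm1.

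Replication genes called higher were Fen1, the flap endonuclease, by 0.49, the origin kinase gene Cdc7 by 0.42 and the chromatin assembly gene Chaf1b by 0.24. The call of Fen1 was lost on the mean of its probe sets (0.23, limma adjusted p = 0.0517). That of Chaf1b was lost in every omission of 1 animal except control replicate 4, and its within-set value was -0.044. Lower were the origin recognition gene Orc6 (-0.42), the fork protection gene Timeless (-0.31) and the GINS subunit gene Gins1 (-0.30). Orc6 had a within-set value of -0.22, Timeless was at -0.084 on the mean of its probe sets (limma adjusted p = 0.353), and Gins1 was at -0.20 after quantile normalisation (limma adjusted p = 0.0525). The kinetochore genes Spc24 and Spc25, whose products bind each other, were called in opposite directions, with 0.65 ± 0.10 and -0.64 ± 0.12 (SE). The direction of Spc25 rests on 1 of its 2 probe sets: on single-transcript probe sets it was at 0.11, on the mean at -0.27 (limma adjusted p = 0.0676), and the within-set value was -0.29. The condensin genes Smc2 and Smc4 were lower by limma (-0.56 and -0.47), with within-set values of -0.23 and -0.10, and Ckap2, which stabilises microtubules, was higher (0.37, within-set value 0.096). Among G1 regulators E2f5 and E2f3 were higher (0.51 and 0.25), and Lin54, Rbl2 and Lin9, which belong to the DREAM complex that silences cell cycle genes, were lower (-0.51, -0.40 and -0.37). Within-set values were 0.27 for E2f5 and for E2f3, -0.16 for Lin54, -0.23 for Rbl2 and -0.21 for Lin9. E2f5 was at 0.11 on the mean of its probe sets (limma adjusted p = 0.243) and Rbl2 at -0.29 (0.0611). The call of E2f3 held only without control replicate 4 or treated replicate 2 or 4, and that of Rbl2 was lost without control replicate 2 or 3. Checkpoint genes included Atr, a kinase that senses stalled forks, which was higher (0.45) on the probe set used and lower on another (mean 0.015, limma adjusted p = 0.895), and the helicase gene Blm and the kinase gene Chek2, which were lower (-0.39 and -0.24).

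Markers of other liver cells were read beside these results. None of 7 lymphocyte, 7 Kupffer cell and macrophage, or 7 neutrophil markers was called by limma (unadjusted p under 0.05 in 1, 1 and 0). Mean levels of the lymphocyte markers were 5.12 to 5.35 in controls and 5.18 to 5.32 in treated livers, and those of the neutrophil markers 4.59 to 4.77 and 4.57 to 4.72. All 7 neutrophil markers lay under the array median. Of 6 erythroid markers Alas2 was higher and Klf1 lower. Endothelial markers had 1 of 7 higher and 4 lower (mean levels 7.66 to 8.11 in controls, 7.58 to 7.96 in treated livers). Stellate cell markers had 3 of 7 lower (8.37 to 8.52 in controls, 8.02 to 8.34 in treated livers). Of 5 bile duct markers 1 was higher. The part of any of these cells in the cell cycle results was not tested.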

How the data were processed

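Liver RNA of 10 mice was labelled with a 3′ IVT kit and read on Affymetrix arrays, per the labels' protocols. The submitters' processing notes name GCOS, with no version. The authors deposited log2 values, which span 2.34 to 15.13. The log2 scale was taken from that span. No source used here states how probes were summarised and normalised, and nothing further was done to the values. The number of arrays limits the precision, and the p-values measure the spread between animals.

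Symbols came from the platform annotation: 34945 probe sets had 1 symbol, 932 had several and 9160 were unlisted. Entrez IDs were compared with the RefSeq table of GRCm38.p6 for 34741 of them, and 0 symbols changed. Where a gene had several probe sets, the brightest over the 10 arrays was used. Fits used limma 3.58.1 in R 4.3.3 (lmFit, eBayes, Benjamini-Hochberg over all genes), with 5 against 5 animals and no covariate, and the smaller computations used Python 3.11.15. The fit was tested on simulated data for this comparison (18193 genes, of which 200 were changed, 5 runs). It recovered 99.6% of the 2-fold and 84.4% of the 1.4-fold changes, at 8.6 false calls per run. The simulated arrays had independent noise and no spike-in set difference. These rates therefore cannot be carried over to the arrays read here, which differ in spike-in set.

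The genes, lists and alternatives were chosen with earlier results of these data known. Of the wider lists the text names up to 3 called genes each way by size, plus Ccnd1, Cdkn1a and Foxm1, with Cyp2b10 and Alb as checks. Promoter windows came from RefSeq. Both groups use replicate numbers 1 to 5 with no stated link, and they were not taken as pairs. Figures were drawn with matplotlib 3.10.9.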

Additional observations from a re-analysis of the deposited data

Results flagged for a closer look

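In 5 of 92 sets of 5 animals 1 animal lay far from the other 4, by Dixon's ratio of its gap to the range. Chance gives about 1 in 20. Ccnd2 was at 7.52 in phenobarbital replicate 4 against 7.77 to 7.81 in the other treated livers. Cdk2 and E2f1 were low in phenobarbital replicate 1, at 7.18 (others 7.60 to 7.70) and 5.68 (others 5.86 to 5.92). Tpx2 was high there, at 5.77 (others 5.15 to 5.27). Ube2c was at 3.80 in phenobarbital replicate 4 (others 4.24 to 4.41).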

How the results depend on the processing

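The alternatives below were listed at the start of the work, with earlier results of these data known. With the spike-in set as a block, with the spike-in mean as a covariate and within the low set alone, limma called 143, 129 and 96 of all genes, 0, 0 and 0 of the 46 cell cycle genes in either direction and in each phase, and 2, 3 and 0 of the wider list. The cause was not tested, and the low set holds 1 control. Over brighter genes alone fewer genes were tested, among them 14 of the 46. These gave 1 higher and 4 lower calls, with 3 calls among 7 S phase genes and 1 among 5 of G2 and mitosis. The wider list gave 16 calls among 50 genes tested. Quantile normalisation gave 7 higher calls and 2 in G1/S control. The mean of all probe sets of a gene gave 1 lower call, 3 in S phase and 0 in G1/S control. Single-transcript probe sets, found for 37 of the 46, gave 3 calls among 11 S phase genes. Testing every probe set singly gave 48 in the wider list. The median of the 6 G1/S genes was -0.019 both with the block and within the low set. Among brighter genes only 2 of the 6 were present, with a median of -0.282, so that value reflects which genes were included.

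Some values turned sign. Mcm3 was at -0.08 on single-transcript probe sets and Rrm1 at 0.386 on its most significant single probe set, where Ccnd1 was at -0.708 and Foxm1 at 0.348. Chaf1b was at -0.044 with the spike-in block and within the low set, and Spc25 at 0.106 on single-transcript probe sets. The cause was not tested.

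Leaving out 1 animal at a time gave 2431 to 4610 calls over all genes, the lowest without phenobarbital replicate 2 and the highest without control replicate 4. The 46 gave 2 to 7 higher and 2 to 5 lower calls, S phase 2 to 5, G1/S control 1 to 2 and G2 and mitosis 1 to 5, and the wider list 21 to 40. Of the 37 genes not called, 9 were called under some setting and 18 turned sign under some setting.

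Same-numbered animals did not deviate together, with correlations over genes of -0.024, 0.021, -0.0012, 0.10 and 0.12 for numbers 1 to 5, and 2 of the 5 correlated best with their own number. With a replicate block limma called 3664 of all genes, 4 higher and 5 lower of the 46, and 33 of the wider list. Among the named genes the block added a call of Ccnd1 (0.276, limma adjusted p = 0.0462) and ended that of Chaf1b (0.244, limma adjusted p = 0.0638). Ccnd1 was also called without control replicate 5 or phenobarbital replicate 1. Array weights, a trended variance, median centring and single-transcript probe sets gave 3 to 5 higher and 4 to 6 lower calls. Dim genes limit what the arrays show: 6 of the 46 lie under the lower quartile of the arrays on the probe set used.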
